A study of Arabidopsis thaliana with 6 samples.

Results

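The genes described are 5 members of glycosyl hydrolase family 9 (GH9) of Arabidopsis thaliana, GH9B13, GH9C2, GH9B8, GH9B5 and GH9B7. They were chosen by their higher values in stems treated with NPA than in mock-treated stems, so their differences between these groups are given as a description and without a test. They are 5 of the 15 GH9 genes that have a probe set of their own, and 5 of 13355 genes measured in that way. A probe set is a group of short probes on the array that together measure a transcript. Each GH9 gene had exactly 1, so no choice among probe sets was needed.

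All 6 samples were pieces of the stem of wild-type Col plants, which had spent 3 weeks in short days (8 h light, 16 h dark) before long days (16 h light, 8 h dark). In the NPA group (3 samples) the stems had received 10 mg/g NPA, N-1-naphthylphthalamic acid, which blocks the polar transport of auxin, and in the mock group (3 samples) a mock treatment. The pieces were 3 mm long, came from 2.5 cm above the stem base and were frozen after 7 days of treatment. The study used NPA to start secondary growth in the stem and looked for genes of the cambium, the cell layer that makes wood and secondary phloem. The treatment protocol deposited with all 6 samples, mock included, speaks only of NPA, so the mock group rests on the titles, descriptions and group labels. The labels do not say what carrier was applied or how many plants gave each sample, and they do not name separate plants for the replicates, so the spread between arrays may be technical.

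Family 9 enzymes of plants are endo-1,4-beta-glucanases, which cut chains of 1,4-linked glucose such as cellulose within the chain. Class A proteins, such as KORRIGAN, are anchored in the membrane and take part in making cellulose. Class B proteins are secreted and consist mainly of the catalytic domain, and class C proteins are secreted and carry an added carbohydrate-binding module at their end. In growing and thickening stems such enzymes are thought to trim or loosen cellulose while walls are built or extended, and GH9B5 and GH9C2 have been linked to the crystallinity of cellulose in Arabidopsis walls. The 5 genes comprise 4 of class B and 1 of class C, while the 10 other measured genes comprise 2 of class A, 6 of class B and 2 of class C.

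The arrays were alike, with Pearson's r between 0.98 and 0.99 over the 22746 probe sets for every pair. The array medians were 0.11 higher in NPA than in mock on the log2 scale, so differences near that size depend on how the arrays are scaled. The second principal component, with 21.9% of the variance, separated mock 1 and NPA 3 from the rest, and values without both are given where the members are compared. Markers of the stem's outer tissues were in part bright. The log2 level averaged over the 8 measured photosynthesis genes of the green cortex was 10.7 to 10.9 on the mock arrays. On the NPA arrays it was 10.9 to 11.2. The mock means of the single genes ran from 8.26 (SBPASE) to 12.30 (LHCB4.1). The epidermis gene FDH was at 12.3 in mock and 12.0 in NPA. The other 3 measured epidermis genes, which act in the stomatal lineage, were dim in mock, FAMA at 4.91 and MUTE and SPCH at 3.62 and 3.50, below the lower quartile. The 5 measured pollen genes had mean levels of 3.998 to 4.31 over all arrays. PAP85, a seed storage protein gene, stood at 8.22 on mock 2 and 7.11 on NPA 1 but between 3.80 and 4.79 on the other arrays, so it moved with single arrays and not with treatment.

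GH9B13, a class B enzyme gene, showed the largest difference of the 5. Its log2 expression was 7.50, 7.17 and 7.01 on mock 1, 2 and 3 and 9.39, 9.80 and 9.60 on NPA 1, 2 and 3. The groups did not overlap, and the lowest NPA array lay 1.89 above the highest mock array. The group means were 7.23 ± 0.25 and 9.60 ± 0.21 (SD, n = 3 each), a difference of 2.37 ± 0.16 (SE) on the log2 scale, or 5.17-fold. This was the eighth largest rise of all probe sets by size alone, at rank 8 of 22746.

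GH9C2, the class C gene among the 5, was at 8.13, 8.18 and 7.66 on the mock arrays and at 9.77, 9.68 and 9.44 on the NPA arrays. Mock 3 was the lowest mock array, and every NPA array stood at least 1.27 above every mock array. The means were 7.99 ± 0.28 and 9.63 ± 0.17 (SD, n = 3 each), so the gene was 1.64 ± 0.16 (SE) higher in NPA on the log2 scale, or 3.12-fold.

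GH9B8, of class B, was the dimmest of the 5 relative to the arrays. It read 5.36, 5.57 and 4.85 in mock and 6.70, 6.96 and 6.77 in NPA. The mock arrays were the more scattered group, with an SD of 0.37 against 0.13 in NPA, and mock 3 was again the lowest. The gene differed by 1.55 ± 0.19 (SE) on the log2 scale, or 2.93-fold. Its mock mean of 5.26 lay between the lower quartile (4.22) and the median (6.25) of the mock arrays, where the distance from background is not known, so this fold is not exact.

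GH9B5, also of class B, was at 6.16, 6.03 and 5.96 in mock and at 7.31, 7.50 and 6.97 in NPA. Here the NPA arrays were the more scattered, with NPA 3 lowest, but still 0.81 above the highest mock array. The difference was 1.21 ± 0.15 (SE) on the log2 scale, or 2.31-fold. The mock mean of 6.05 also lay between the lower quartile and the median (6.25) of the mock arrays, so the same limit holds for this fold.

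GH9B7, of class B, had the smallest difference. It read 8.49, 8.16 and 8.17 in mock and 9.13, 9.38 and 9.30 in NPA, with mock 1 the highest mock array and a distance of 0.64 between the groups. The gene differed by 0.99 ± 0.13 (SE) on the log2 scale, or 1.99-fold.

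**Figure D1:**
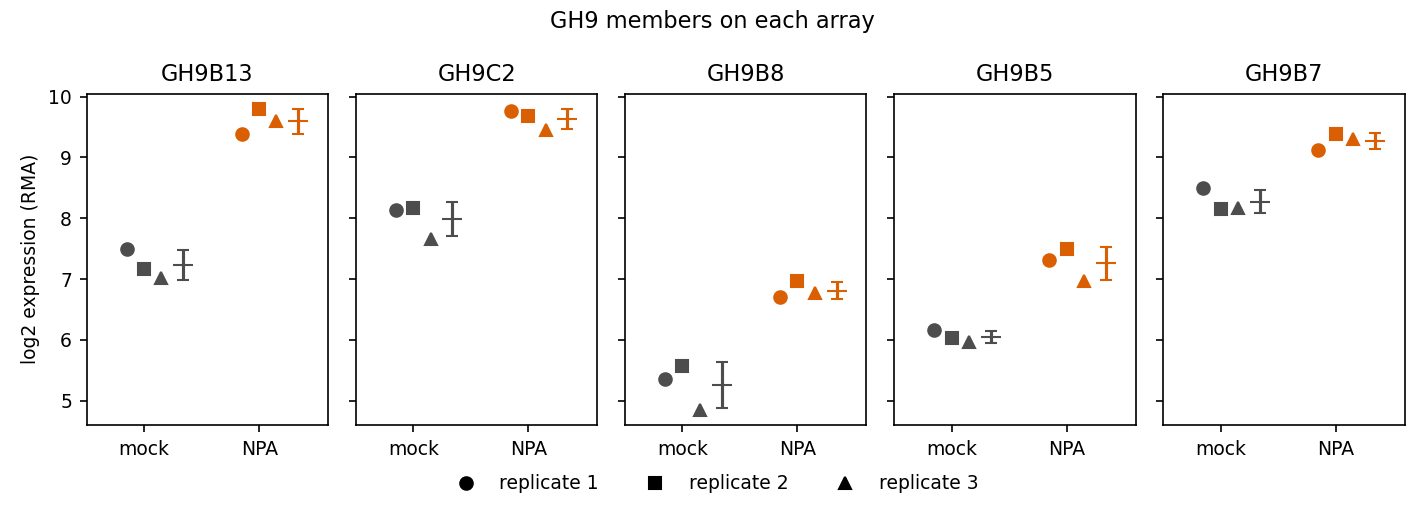
Log2 expression (RMA) of the 5 GH9 genes on each of the 3 mock (grey) and 3 NPA (orange) arrays, 1 panel a gene, with symbols for replicate numbers and a bar for the mean and SD of each group. In every panel the NPA arrays lie above the mock arrays, by 0.64 (GH9B7) to 1.89 (GH9B13) between the nearest arrays. Heights in different panels come from different probes and are not compared.

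In all 5 genes the groups did not overlap with NPA higher, as in 14.8% of all probe sets. All 5 were also called higher by limma at an adjusted p under 0.05, as were 2.76% of all probe sets. Since the genes were chosen on these same arrays, nothing is read from either count. The gene just inside the choice was GH9B7 at 0.99, and the nearest gene outside was GH9A4 at 0.31, with no family gene measured between them.

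The order of the differences was GH9B13, GH9C2, GH9B8, GH9B5 and GH9B7. Each pair was compared by the difference of the 2 genes within each array, and in 7 of the 10 pairs the mock and NPA ranges of this difference did not overlap. The same arrays set the order, so the direction of each gap was given in advance. With no difference at all, 10% of splits of 3 against 3 arrays show no overlap. No test was made, and the count is a description. The pairs of GH9B13 with each of the other 4 genes were among those without overlap. Within each array GH9B13 minus GH9C2 ran from -1.005 to -0.63 in mock and from -0.38 to 0.16 in NPA, so the difference of GH9B13 exceeded that of GH9C2 by 0.73 ± 0.21 (SE, n = 3 arrays each). The next gaps were 0.09 ± 0.14 between GH9C2 and GH9B8, 0.34 ± 0.23 between GH9B8 and GH9B5, and 0.22 ± 0.17 between GH9B5 and GH9B7. In these 3 pairs the ranges of mock and NPA arrays overlapped, so the order of neighbours below GH9B13 is not settled. Between genes further apart in the order the ranges did not overlap. GH9C2 exceeded GH9B7 by 0.65 ± 0.21 and GH9B5 by 0.43 ± 0.16, and GH9B8 exceeded GH9B7 by 0.56 ± 0.22 (SE, n = 3 arrays each). For GH9B8 minus GH9B7 the margin was narrow, with the highest mock array at -2.59 and the lowest NPA array at -2.52.

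Single arrays moved the sizes little. With each array left out in turn, GH9B13 differed by 2.26 to 2.51 and GH9C2 by 1.48 to 1.74. The ranges were 1.35 to 1.71 for GH9B8, 1.09 to 1.35 for GH9B5 and 0.935 to 1.102 for GH9B7. Without mock 1 and NPA 3, the arrays set apart by the second component, the differences were 2.50 for GH9B13, 1.81 for GH9C2, 1.62 for GH9B8, 1.41 for GH9B5 and 1.09 for GH9B7. With each array centred on its median GH9B13 differed by 2.26, GH9C2 by 1.53, GH9B8 by 1.44 and GH9B7 by 0.88, each about 0.11 less than before.

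Deviations from the group mean are a measure that the choice of genes did not use. On mock 3 all 5 genes lay below their group mean, by 0.23 on average, with GH9B8 at -0.41 and GH9B5 at -0.09. On mock 1 none of them lay below it, and their mean deviation was 0.17. On NPA 2 again all 5 lay above the group mean, by 0.15 on average. Over all probe sets the share below the group mean was 51.5% on mock 3, 46.1% on mock 1 and 55.8% on NPA 2, so on NPA 2 the 5 genes and the majority of probe sets lay on opposite sides. The genes were mixed on the other 3 arrays, where 3 of 5 lay below the group mean each time. On NPA 1, for example, GH9C2 was at 0.14 and GH9B13 at -0.21. With only 3 arrays a group, 2 of the 3 deviations of a gene fix the last, and no test was made.

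**Figure D2:**
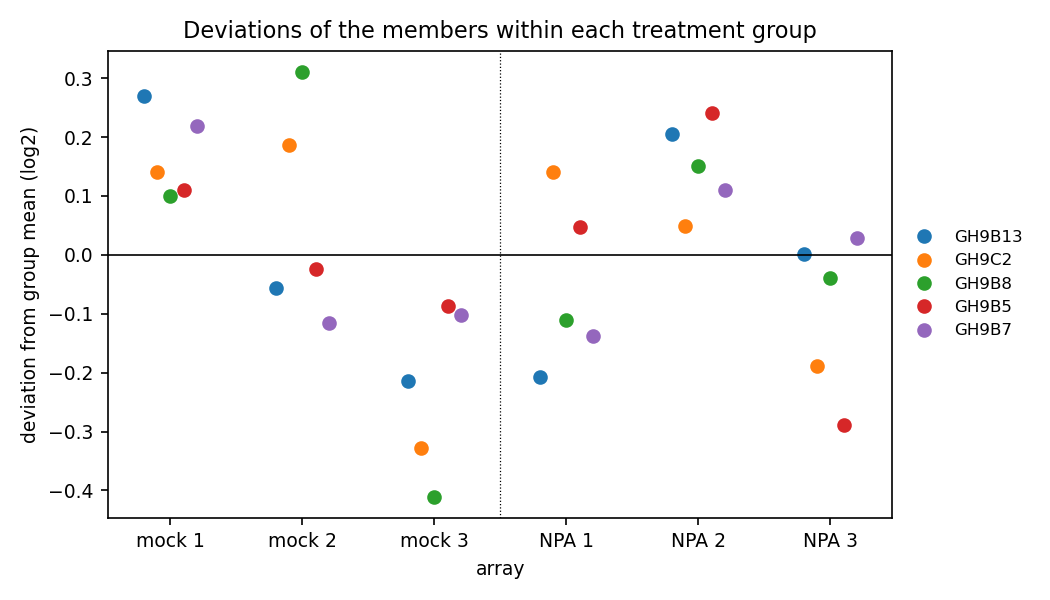
Deviation of each of the 5 GH9 genes from the mean of its own treatment group (log2), by array, with mock left and NPA right of the dotted line. All 5 lie above 0 on mock 1 and NPA 2 and below 0 on mock 3, and the signs are mixed on the other 3 arrays.

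The other measured family genes stayed near 0. Their 10 differences ran from -0.17 (GH9B16) to 0.31 (GH9A4) with a median of 0.01, beside 0.01 for all genes with a probe set of their own. The means of 5 were higher and of 5 lower in NPA, 0 of 10 were called by limma and 0 had an unadjusted p under 0.05. In 1 of the 10, GH9B6, the groups did not overlap, by a margin of 0.0029. These genes are what the choice left over, so the contrast with the 5 is part of that choice.

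Levels set a limit to this contrast. In mock, 6 of the 10 other genes lay below the lower quartile of the arrays (4.22), where RMA values give no sign of whether a transcript was present, against 0 of the 5. The 2 other class C genes belonged to them, GH9C1 at 3.77 ± 0.04 in mock and 3.76 ± 0.13 in NPA and GH9C3 at 3.54 ± 0.14 and 3.53 ± 0.16 (SD, n = 3 each). GH9C1 is known from root hairs. GH9B6, GH9B11, GH9B16 and GH9B17 were the other 4, with differences of 0.05, -0.08, -0.17 and 0.04.

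The remaining 4 genes were above the lower quartile. GH9A4, of the membrane-anchored class A, read 4.96, 4.63 and 5.14 in mock and 5.26, 5.61 and 4.78 in NPA. Its groups overlapped, with NPA 3 below 2 of the 3 mock arrays, and it differed by 0.31 ± 0.22 (SE). This value was 0.11 without NPA 2 and 0.53 without NPA 3. GH9A3 (KOR3), also of class A, went from 5.11 ± 0.07 to 5.27 ± 0.12 (SD, n = 3 each), a difference of 0.15. GH9B18 and GH9B12 differed by 0.10 ± 0.12 and -0.06 ± 0.14 (SE). With arrays centred on their medians the differences of GH9A3 and GH9A4 were 0.04 and 0.20, while those of GH9B6, GH9B17 and GH9B18 turned to -0.06, -0.07 and -0.0076, so that 2 of the 10 genes were higher and 8 lower.

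A pair of probe sets stood for 2 genes each and named none of them alone. The one shared by GH9B9 and GH9B10 read 3.19 ± 0.14 in mock and 3.12 ± 0.09 in NPA, and the one shared by GH9B14 and GH9B15 3.41 ± 0.06 and 3.43 ± 0.18 (SD, n = 3 each). Both lay near the lower end of the arrays, at about 2.7 to 2.8. A further 5 family genes, among them GH9A1 (KORRIGAN), had no probe set listed and were not analysed here. The gene table held 24 GH9 genes by name.

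**Figure D3:**
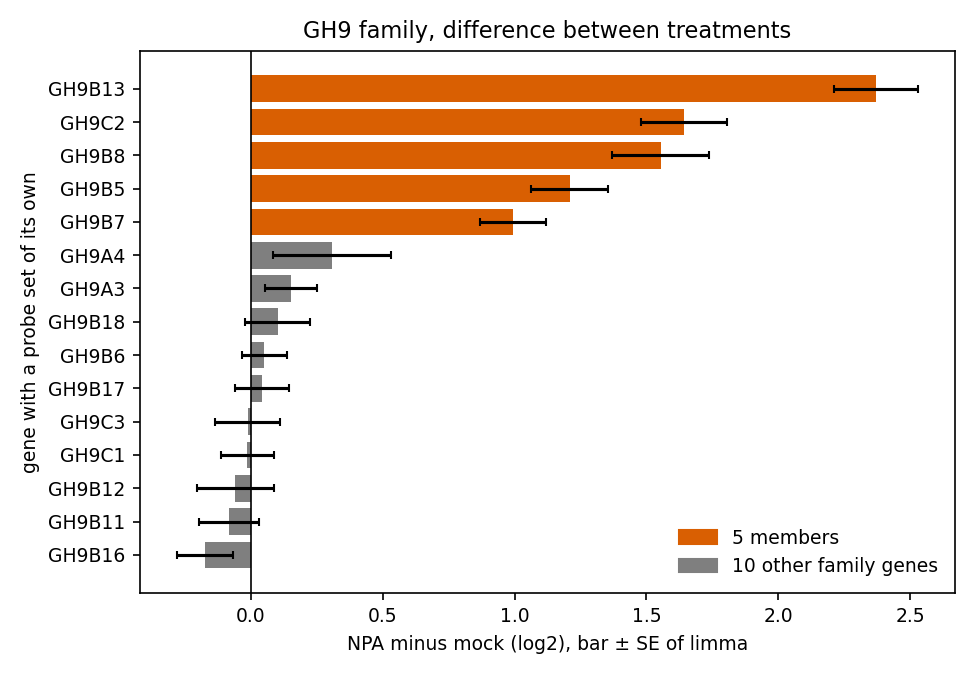
NPA minus mock difference (log2) of the 15 GH9 genes with a probe set of their own, as bars with the standard error of limma. The 5 members (orange) range from 0.99 to 2.37 and the 10 other genes (grey) from -0.17 to 0.31.

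Genes whose values over the 6 arrays ran most like those of each GH9 gene were found by Pearson's r over all 13355 genes. Such an r mostly reflects the step between mock and NPA, and the 6 arrays are shared by all genes, so it is a description only. For GH9B13 these were AT3G13510, AT4G22730 and AT5G17600, with r of 0.999, 0.998 and 0.998 and with smaller differences of 0.91, 1.42 and 0.86. For GH9C2 they were AT5G35910 (r = 0.997), IRX15-L (r = 0.995), a gene of xylan synthesis, and AT4G28380 (r = 0.994). IRX15-L went from 8.08 ± 0.26 to 9.41 ± 0.13 (SD, n = 3 each).

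For GH9B8 the nearest genes were AT3G25290 (r = 0.996), AT1G45688 (r = 0.995) and scpl25, a serine carboxypeptidase-like gene (r = 0.995). For GH9B5 they were ACLA-1, a subunit gene of ATP-citrate lyase (r = 0.995), AT1G01300 (r = 0.994) and AT1G22610 (r = 0.994). For GH9B7 they were AT2G44830 (r = 0.997), AT3G13510 (r = 0.996) and AT2G28410 (r = 0.995). Only AT3G13510 was among the nearest 3 of more than 1 GH9 gene, namely of GH9B13 and GH9B7. No GH9 gene was among the nearest 3 of another.

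Lists of wall genes put the GH9 values beside those of related steps. A listed gene counts as measured only where the platform table names a probe set for it alone. Over all genes with a probe set of their own, limma called 2.31% higher and 0.232% lower at an adjusted p under 0.05. Of 3 measured genes of cellulose synthesis, among 33 listed, 0 were called. COB, which encodes a protein that orients cellulose deposition, went from 9.45 ± 0.28 to 10.04 ± 0.22 (SD, n = 3 each), a difference of 0.59 ± 0.17 (SE, adjusted p = 0.138), and was the only one with an unadjusted p under 0.05. GH9A3 was also on this list.

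Of 14 measured genes that make or remodel xyloglucan, the polymer that coats cellulose, 1 rose and 0 fell, with a median difference of 0.02. The riser was CSLC5, of the family of glucan synthases that make the xyloglucan backbone, at 5.63 ± 0.15 and 6.36 ± 0.21 (SD, n = 3 each), a difference of 0.73 ± 0.14 (SE, adjusted p = 0.0366). Leaving out whichever single array ended this call (adjusted p 0.0547 to 0.125), and 8 of the 14 genes lay below the lower quartile in mock.

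Of 18 measured expansin genes, which encode proteins that loosen walls without cutting chains, 3 rose and 0 fell, while the list median was 0.06. EXPB3 rose by 2.06 ± 0.21 (SE, adjusted p = 0.00436), EXPA15 by 1.59 ± 0.28 (adjusted p = 0.0282) and EXPA4 by 1.28 ± 0.13 (adjusted p = 0.00403). Each of mock 2, NPA 1, NPA 2 and NPA 3, when omitted, ended the EXPA15 call (highest adjusted p = 0.0961). Of the 15 that were not called, EXPA20 differed by 0.83 ± 0.22 (SE, adjusted p = 0.102), and 6 of the 18 genes were below the lower quartile in mock.

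Of 9 measured genes of other hydrolases, 8 of them members of the BGLU family of beta-glucosidases, 0 were called and 0 had an unadjusted p under 0.05. The lowest p was that of BGLU47, at 5.13 ± 0.62 and 4.605 ± 0.24 (SD, n = 3 each), a difference of -0.52 ± 0.29 (SE, adjusted p = 0.442). The median of these genes was 0.14, beside 0.01 for all genes with a probe set of their own. The array medians differed by 0.11, and the part of array scaling in this value was not tested.

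All 3 measured genes of secondary wall synthesis, among 40 listed, rose, with a median of 1.33 beside 0.01 for all genes. They are genes of xylan only, so no other step of this list was measured. The list was chosen with earlier results of these data known. IRX10 rose by 1.40 (adjusted p = 0.00705), IRX15-L by 1.33 (adjusted p = 0.00532) and IRX15 by 0.97 (adjusted p = 0.0138), all genes of xylan, the main polymer that fills secondary walls beside cellulose. Omitting mock 2, or mock 3, ended the IRX15 call (highest adjusted p = 0.0576).

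Most measured genes of the xylem and fibre list were higher in NPA, as the GH9 genes were. Of 5 measured xylem and fibre genes, among 27 listed, 4 rose. These were HCT of lignin synthesis (0.75 ± 0.09, SE, adjusted p = 0.00749) and the 3 xylan genes already counted for secondary wall synthesis. The lists thus overlap and are not separate evidence. PRX72 was below the lower quartile at 3.42 in mock and 3.38 in NPA. The mean level of these 5 ran from 7.78 to 7.98 in mock and from 8.68 to 8.94 in NPA. Of 4 measured genes on the cambium list, among 30 listed, 2 rose, CLE44 by 1.92 (adjusted p = 0.00236) and MOL1 by 0.67 (adjusted p = 0.0209). CLE44 and CLE41, also on that list, encode the TDIF peptide, a signal from the phloem side to the cambium, so they do not mark cambium cells themselves. The mean level of the 4 genes went from 8.07 to 8.15 in mock up to 8.86 to 9.12 in NPA. This mean includes CLE44, which had the largest difference of the 4. CLE41 (0.46, adjusted p = 0.132) and PHV (0.37, adjusted p = 0.41) were not called by limma. The MOL1 call ended when any array except mock 3 was omitted (highest adjusted p = 0.0773) and after median centring (adjusted p = 0.0515). MOL1 may have been found in these same samples and is then no independent evidence of direction. In pieces of whole stem, more cells of a type and more RNA per cell cannot be told apart, and the part of these tissues in the GH9 differences was not tested.

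Of the markers of other tissues 1 gene passed the test. Of 2 measured phloem genes, among 20 listed, OPS, which acts in sieve element formation, rose by 1.15 (adjusted p = 0.0191). The other, SWEET11, a sucrose carrier gene, differed by -0.95 (adjusted p = 0.0909). The OPS call ended when mock 1, mock 2 or NPA 1 was omitted (highest adjusted p = 0.0765), and SWEET11 was called lower when NPA 3 was. In green cortex 0 of 8 were called by limma, with PSBY lowest in p at 0.35 (adjusted p = 0.242) and the only one with an unadjusted p under 0.05. In epidermis 0 of 4 were called and 2 had an unadjusted p under 0.05, with FDH at -0.31 (adjusted p = 0.219). Pollen (0 of 5), seed (0 of 2) and root (0 of 2) held no call by limma, and of these 9 genes 1, OLEO3 of the seed list at -0.31 (adjusted p = 0.279), had an unadjusted p under 0.05.

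**Figure D4:**
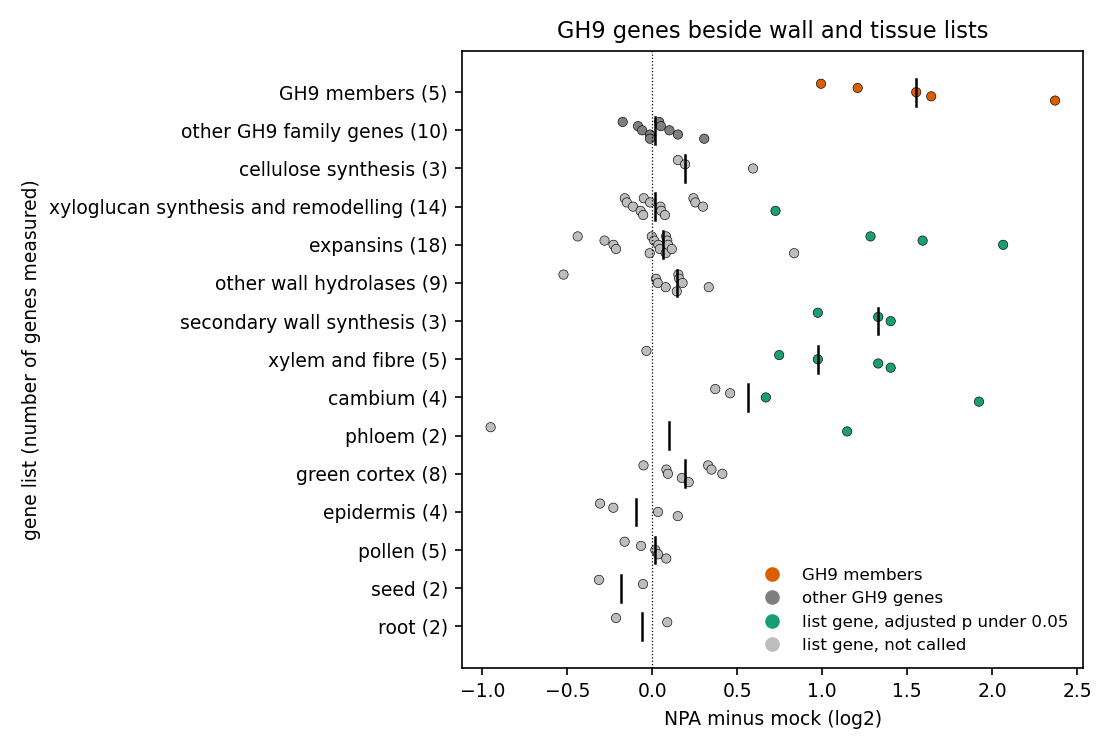
NPA minus mock difference (log2) of each measured gene of the GH9 family and of the wall and tissue lists, 1 point a gene, with a black bar at the median of each list. The 5 GH9 genes lie at 0.99 and above. That range also holds 3 expansins, IRX10 and IRX15-L, CLE44 of the cambium list and OPS of the phloem list. The other phloem gene, SWEET11, lies at -0.95. The xyloglucan, other hydrolase and remaining GH9 genes lie mostly near 0.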

How the data were processed

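Total RNA of 6 stem samples was hybridised to 1 Affymetrix array each. The deposited values are log2 expression values for 22810 probe sets, and the tools named in the submitters' processing notes are RMA and limma. How probe sets were defined or filtered is not given in the sources used here. RMA includes quantile normalization and gives no detection call. The number of arrays limits the precision.

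Values were used as deposited, without the 64 control probe sets. The sample titles gave each group and replicate number. NPA was compared with mock in limma 3.58.1 (lmFit, eBayes; R 4.3.3). P-values were adjusted by Benjamini and Hochberg's method over 22746 probe sets, with calls at an adjusted p under 0.05. Every adjusted p and standard error of a single gene is limma's. The SE of a gap between genes came from the variances of within-array differences. Figures used Python 3.11.15, pandas 2.3.3 and matplotlib 3.10.9. The limma step was tested on simulated data.

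Gene names are those of the platform table, updated through a TAIR10.1 gene table. Of the probe sets, 13513 had exactly 1 gene and 503 several. The rest had no gene named in the platform table. A listed gene that is not counted as measured may therefore still be on the array. List genes had 1 probe set each, the one with the highest mean. Coordinates are not given, and sequences were not used here, so a planned comparison of proteins and promoters was not made.

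The members and the 13 gene lists were chosen with earlier results of these data known. The genes named were the 5 members, the other GH9 genes, the 3 genes most like each member, and of each list the called genes, at most 4, or the one with the lowest p. Alternatives were median centring, a second quantile normalization, the replicate number as a block, brighter probe sets only, trended and robust eBayes, no _s_at or _x_at probe sets, averaged probe sets per gene, other thresholds and each array left out. Leaving out mock 1 and NPA 3 together was added after seeing the data.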

Additional observations from a re-analysis of the deposited data

How the results depend on the processing

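Of 79 values of the 5 GH9 differences from the alternatives, 34 are identical to those reported by construction. The other 45, from rescaled arrays or fewer arrays, stayed above 0 and moved by less than the spread between replicates. The genes were chosen for differences above 0. Limma called all 5 in every alternative but a pair: GH9B8 was not among the brighter probe sets, and GH9B7 missed a log2 difference of at least 1. The counts over all probe sets depended on the settings. Called higher were 628 with all arrays, 398 with the replicate block, 391 after median centring, 217 at an adjusted p under 0.01, 229 with a log2 difference of at least 1, 290 to 405 with single arrays left out and 365 without mock 1 and NPA 3. Called lower were 55, against 87 after quantile normalization, 97 after median centring, 8 at an adjusted p under 0.01, 26 with a log2 difference of at least 1, 14 to 42 with single arrays left out and 32 without mock 1 and NPA 3. Of the pathway lists together 7 genes were called higher, 4 at an adjusted p under 0.01 and 4 to 6 with single arrays left out. Under the replicate block CSLC5 (adjusted p = 0.0948) and EXPA15 (adjusted p = 0.0543) lost their calls. Samples with the same replicate number had deviations correlated at -0.26, 0.05 and 0.04, and 2 of 6 samples correlated best with their own number, so the numbers were not taken to pair the samples. CSLC5 was also not called after quantile normalization or median centring (adjusted p = 0.0750 and 0.0842), and HCT (adjusted p = 0.0528), MOL1 (0.0980) and OPS (0.0871) were not called without mock 1 and NPA 3. Averaging probe sets per gene changed no GH9 value, since each gene had 1. CSLC5 was called without mock 1 and NPA 3 (adjusted p = 0.0487). Fits with fewer arrays have less power, and the cause of the changes was not tested.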

Other observations

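The genes next to the 5 GH9 genes on the chromosomes were looked at after their values were seen. Of these 10 neighbours 4 had a probe set of their own, and 0 of them were called by limma, with 0 at an unadjusted p under 0.05. AT4G02300, next to GH9B13, differed by 0.17 ± 0.10 (SE, adjusted p = 0.468), from 4.097 in mock to 4.27 in NPA. AT2G33000, next to GH9B8, differed by 0.09 ± 0.09 (adjusted p = 0.667), AT1G19930, next to GH9B5, by -0.20 ± 0.19 (adjusted p = 0.667), and AT1G75670, next to GH9B7, by -0.29 ± 0.14 (adjusted p = 0.380). In mock 2 of the 4, AT4G02300 and AT2G33000, lay below the lower quartile of the arrays, where presence of a transcript is not known. The neighbours of GH9C2 were not analysed here.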
